A study of Rattus norvegicus with 5 samples.

Results

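The Indian hedgehog and PTHrP loop was followed in rat condylar cartilage through 9 genes, Ihh, Pthlh, Pth1r, Ptch1, Smo, Gli1, Gli2, Gli3 and Hhip. A probe set was taken as a member when the platform annotation gave it the symbol of 1 of these genes and no other. This found 8 probe sets for 6 genes, of 31042 probe sets and 14217 genes in all: 2 each for Pth1r and Smo and 1 each for Ihh, Gli1, Gli2 and Hhip. No probe set was listed under Pthlh, Ptch1 or Gli3, so the ligand PTHrP, the hedgehog receptor Patched and the repressor Gli3 were not analysed here.

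In growing cartilage, chondrocytes that leave the proliferative pool secrete Indian hedgehog (Ihh). Its receptor Ptch1 holds Smo back until a ligand binds, after which Smo acts at the primary cilium and the zinc finger factors Gli2 and Gli3 change from repressors to activators. Gli1, Ptch1 and Hhip are textbook target genes of this pathway, and Ptch1 and Hhip in turn bind the ligand and dampen it. Hedgehog signalling also maintains PTHrP (Pthlh) at the surface of the cartilage, which acts on its receptor Pth1r deeper down and delays hypertrophy, the enlargement of chondrocytes before bone replaces them.

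The samples were cells cut out by laser-capture microdissection from sections 7 µm thick of wild type male Sprague-Dawley rats aged 5 weeks, without treatment. The mandibular condylar cartilage (MCC) of the jaw joint gave 4 groups from surface to depth, the fibrous zone (FZ), the proliferative zone (PZ), the mature chondrocytes zone (MZ) and the hypertrophic chondrocytes zone (HZ). The femoral condylar cartilage (FCC) of the knee, of which the middle and deep zones were cut, was the control. Lysates of 30 sections per zone were pooled according to the labels (the methods give more for FZ), the number of rats behind a pool is not stated in the sources used here, and each group had 1 array. With 1 array per group there was no test, no error between replicates and no p-value, and in pooled tissue fewer cells of a type and less RNA per cell cannot be told apart.

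Each value is a deposited log2 value relative to the median of that probe set over the 5 arrays, so 0 marks the middle array of a probe set and no value is an expression level. The median range of a probe set over the arrays was 0.58. The mean of 18 hybridization controls, which are spiked into every array, was 0.50 in FCC, 0.44 in PZ and between -0.15 and -0.02 in the other 3 arrays. For beta-actin, the value of the 5′ probe set minus that of the 3′ probe set was 1.24 in FCC against -0.24 to 0.14 elsewhere. For GAPDH the same difference set PZ apart, at 1.36 against -0.21 in FCC and at most 0.27 elsewhere. Because each probe set is centred on its own median, these differences compare arrays only. They do not show that 5′ signal exceeded 3′ signal in any array. The part of the beta-actin and GAPDH differences in the results below was not tested. For the hybridization controls, member differences were also computed after a shift of the arrays to equal controls. Which scaling is nearer to the RNA in the cells was not tested. The labels were set against marker lists. The median of 7 fibrous tissue markers was highest in FZ at 2.28 and lowest in HZ at -2.25. The median of 10 hypertrophy markers was 0.43 in MZ and 0.32 in HZ, and Col10a1, the collagen of hypertrophic chondrocytes, was at 0.62 in MZ and 0.37 in HZ, so these markers did not set HZ above MZ.

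The promoter stretches of 4 members are shown because Ptch1 and Hhip are the feedback arms of the pathway and because Hhip, Gli2 and 1 probe set of Smo all had their highest value in FCC. They are the 250 bases before the gene start in RefSeq, build GRCr8, read 5′ to 3′ on the strand of the gene, and the capitals mark the Gli binding motif GACCACCCA or its reverse complement TGGGTGGTC. The table held 6 members, which also include Pth1r and Gli3.
Ptch1, chr17:1555321-1555570, plus strand: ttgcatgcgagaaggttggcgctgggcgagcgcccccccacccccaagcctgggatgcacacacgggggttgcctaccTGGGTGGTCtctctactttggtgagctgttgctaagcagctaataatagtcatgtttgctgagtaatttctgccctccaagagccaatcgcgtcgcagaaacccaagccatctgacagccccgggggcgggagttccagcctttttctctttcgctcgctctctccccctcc
Hhip, chr19:44767788-44768037, plus strand: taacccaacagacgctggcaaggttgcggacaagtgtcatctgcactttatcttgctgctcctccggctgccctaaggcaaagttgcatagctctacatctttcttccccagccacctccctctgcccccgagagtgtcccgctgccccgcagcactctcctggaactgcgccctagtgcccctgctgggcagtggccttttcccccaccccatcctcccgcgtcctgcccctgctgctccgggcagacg
Gli2, chr13:32716419-32716668, minus strand: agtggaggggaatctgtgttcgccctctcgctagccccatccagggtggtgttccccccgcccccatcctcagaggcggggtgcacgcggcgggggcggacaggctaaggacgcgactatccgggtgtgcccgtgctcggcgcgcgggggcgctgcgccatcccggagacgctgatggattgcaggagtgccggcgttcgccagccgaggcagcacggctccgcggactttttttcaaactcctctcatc
Smo, chr4:59310834-59311083, plus strand: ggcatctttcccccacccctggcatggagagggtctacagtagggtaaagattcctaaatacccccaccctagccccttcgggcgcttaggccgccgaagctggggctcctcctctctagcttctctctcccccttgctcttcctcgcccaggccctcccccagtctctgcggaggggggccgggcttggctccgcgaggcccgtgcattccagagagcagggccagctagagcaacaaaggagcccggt
Of the 6 members, only Ptch1 held the motif in this window, with its first base 172 bases before the start. The motif was found in 113 of 33469 promoter windows of the same length, which is 0.338%. The windows of Hhip, Gli2 and Smo, where the 9 letters were not found, were 62.8%, 68.4% and 64.8% G and C, against a median of 51.2% over all windows. A match or its absence describes these letters and says nothing of binding.

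Ihh, the ligand, was highest in FCC and lowest in FZ. Its probe set 1393271_at had values of 0 in HZ, 1.23 in MZ, -0.45 in PZ, -1.22 in FZ and 1.81 in FCC. The order was therefore FCC, MZ, HZ, PZ, FZ, and within the MCC the peak lay in the mature zone, with the superficial zones (FZ and PZ) below both deep zones (MZ and HZ). A shift of the arrays to equal hybridization controls kept this order but left FCC and MZ nearly level. MZ minus FCC was then -0.06, and FZ minus PZ was -0.18. The mean of the superficial zones was -0.84 and that of the deep zones 0.62, a log2 difference of -1.45. Against FCC, Ihh was 8.18-fold lower in FZ, 4.81-fold lower in PZ and 3.51-fold lower in HZ, while MZ differed from FCC by -0.58 on the log2 scale. Among the MCC zones, FZ was 5.47-fold below MZ, which put Ihh at place 153 of 31042 probe sets by size in that pair. MZ stood 2.35-fold above HZ, at place 194 in its pair, and HZ lay on the median of the 5 arrays. Without the MZ array the difference between superficial and deep zones was -0.84.

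Pth1r, the receptor that PTHrP shares with parathyroid hormone, was the only measured member with its lowest value in FCC. Probe set 1370259_a_at had values of 0.46 in HZ, 0.58 in MZ, 0 in PZ, -0.20 in FZ and -1.16 in FCC. All 4 MCC zones lay above FCC, and the deep zones lay above the superficial ones by 0.62, less than the 0.96 that separated FZ from FCC. MZ was 3.33-fold and HZ 3.06-fold above FCC. The other probe set, 1375789_at, was nearly flat, with -0.22 in FCC, 0 in FZ, PZ and HZ and 0.06 in MZ. Both probe sets had their lowest value in FCC and their highest in MZ, yet their ranges differed by 1.45, a gap that 10.6% of the 4525 genes with several probe sets reached. The mean of both gave -0.80 for FCC minus the MCC mean.

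Smo, which carries the hedgehog signal across the membrane, gave no agreed pattern from its 2 probe sets. Probe set 1370143_at stayed between -0.03 and 0.15 in all 5 arrays. Probe set 1389475_at had values of -0.49 in HZ, -0.36 in MZ, 0 in PZ, 0.73 in FZ and 1.98 in FCC, with FCC above all zones and FZ the highest of the MCC. The order below FZ depended on the scaling: PZ minus MZ was 0.36 as deposited and -0.10 after a shift of the arrays to equal hybridization controls. On this probe set MZ was 5.06-fold and HZ 5.57-fold below FCC, and FZ exceeded HZ by 1.22. Their ranges differed by 2.30, a gap reached by 2.85% of the genes with several probe sets, against a median gap of 0.53. Which of them follows the Smo transcript cannot be read from the deposited values.

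Hhip, the decoy that binds hedgehog ligands at the cell surface, was highest in FCC and lower in the deep zones than in PZ. Its probe set 1390606_at had values of -0.75 in HZ, -0.67 in MZ, 0.57 in PZ, 0 in FZ and 1.42 in FCC. MZ and HZ thus lay together below every other array, with log2 differences of -2.09 and -2.17 from FCC. Within the MCC the highest value was in PZ, 1.24 above MZ and 1.32 above HZ. After a shift of the arrays to equal hybridization controls these differences were 0.78 and 0.86, and FZ and PZ were level, 0.01 apart. The superficial zones exceeded the deep zones by 0.997, a little under the log2 difference of 1 used for gene counts.

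**Figure D1:**
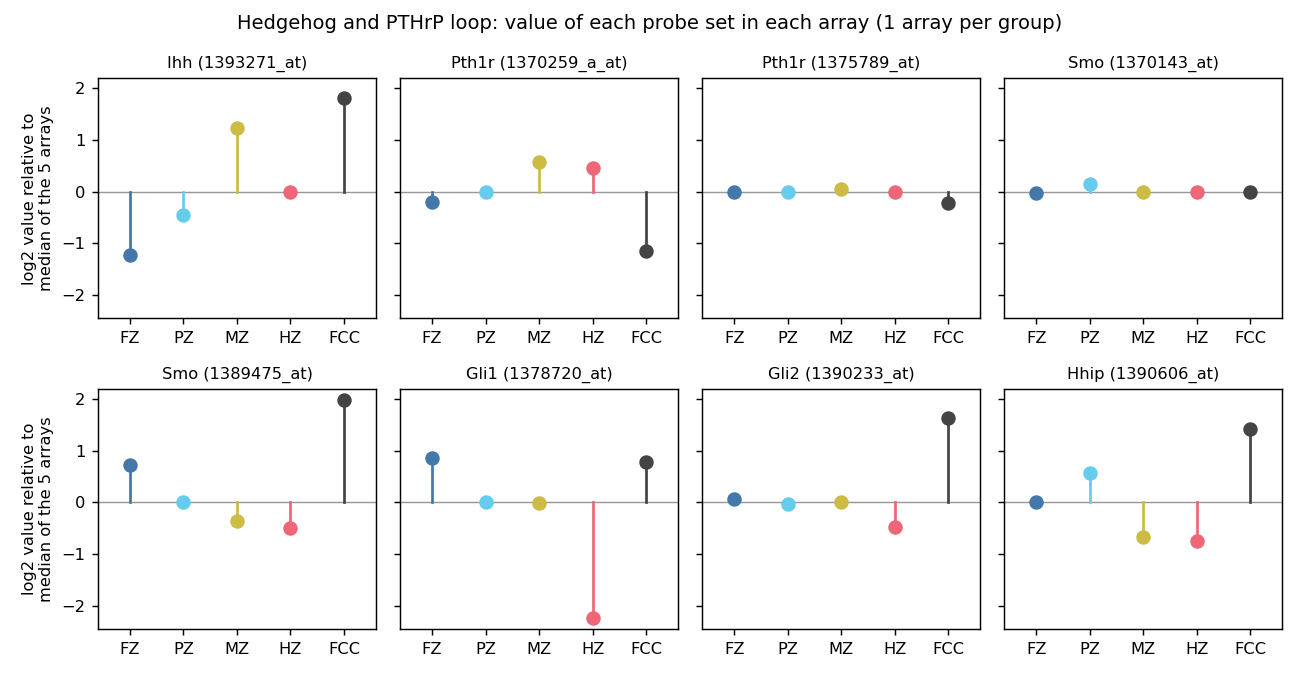
Deposited log2 value of each of the 8 member probe sets, relative to its median over the 5 arrays, in FZ, PZ, MZ, HZ and FCC, with 1 point per array and a line to 0. Ihh peaked in FCC (1.81) and MZ (1.23), Gli1 lay at -2.24 in HZ, and the probe sets of Pth1r and of Smo differed from each other in size.

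Gli1, the transcription factor that is itself switched on by hedgehog signalling, stood out by its low value in HZ. Its probe set 1378720_at had values of -2.24 in HZ, -0.02 in MZ, 0 in PZ, 0.85 in FZ and 0.79 in FCC. As deposited, FCC and FZ were the high arrays and 0.07 apart, PZ and MZ were level, and HZ lay far below all the others. After a shift of the arrays to equal hybridization controls, FZ minus FCC was 0.72 and PZ minus MZ was -0.44. HZ stayed the lowest array under that shift. The range of 3.10 was reached by 1.60% of all probe sets. HZ was 8.16-fold below FCC, 8.55-fold below FZ and 4.73-fold below PZ. Between the adjoining deep zones MZ exceeded HZ by 4.68-fold, place 37 of 31042 by size, in a pair where 46 probe sets were at least 4-fold higher in MZ and 3 in HZ. The superficial mean of 0.43 against the deep mean of -1.13 gave a difference of 1.56, which was 0.44 without the HZ array.

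Beside this low value of Gli1, other genes moved between MZ and HZ. Of 8 chondrocyte markers measured, 4 were at least 1 higher in MZ, with a median difference of 1.07, where 0.907% of all genes passed. Of 7 fibrous tissue markers 4 were, with a median difference of 1.31. The median of the chondrocyte markers was 1.21 in FCC and -0.82 in HZ, with the other arrays between -0.56 and 0.12. The median of the 7 erythroid markers was 0.89 in MZ and 1.59 in HZ, against -0.63 in FZ, -0.62 in PZ and 0 in FCC, and all 7 were at least 1 lower in the superficial zones than in the deep ones. The median of 8 macrophage markers was 0.85 in MZ and 0.84 in HZ, and -0.83 in FCC. The part of such other cells in the values of Gli1, Ihh or Hhip was not tested.

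Gli2, the main activator among the Gli factors, separated FCC from the jaw cartilage and, as deposited, showed little among the MCC zones. Its probe set 1390233_at had values of -0.47 in HZ, 0 in MZ, -0.03 in PZ, 0.07 in FZ and 1.63 in FCC. FZ, PZ and MZ lay within 0.09 of each other. They differed from FCC by -1.56 to -1.65 and HZ by -2.10. The difference between superficial and deep zones was 0.26. In the deposited values Gli1 and Gli2 thus had their lowest value in the same zone, by amounts that differed. MZ minus HZ was 2.23 for Gli1 and 0.47 for Gli2. After a shift of the arrays to equal hybridization controls, PZ minus HZ for Gli2 was -0.02 in place of 0.45, so PZ and HZ were level. Under that shift Gli2 had FZ minus PZ at 0.68 and PZ minus MZ at -0.49. Its differences from FCC then ran from -0.91 in FZ to -1.59 in PZ.

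The pairs of arrays were then counted at a log2 difference of 2, which is 4-fold. In at least 1 of the 10 pairs, 5 of the 8 member probe sets were this far apart, those of Ihh, Gli1, Gli2, Hhip and 1 of Smo, against 6.51% of all probe sets. The count was 2 without the FCC array and 3 without HZ. It was also 3 after a shift of the arrays to equal hybridization controls (Ihh, Gli1 and Pth1r), a setting under which Pth1r was 2.26 higher in MZ than in FCC. Against FCC, HZ had 4 member probe sets lower (Gli1, Smo, Hhip and Gli2), where 3.55% of all probe sets passed in either direction. MZ had 2 lower than FCC (Smo and Hhip; 2.47% of all). Ihh alone was lower in FZ (2.13% of all) and in PZ (2.43% of all). In the deposited values no member was at least 2 higher in an MCC zone than in FCC.

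Among the MCC zones Ihh and Gli1 were the only members at least 2 apart. Ihh was lower in FZ than in MZ, where 0.854% of all probe sets passed. Gli1 was lower in HZ than in FZ (1.25% of all), PZ (1.74% of all) and MZ (0.158% of all). The difference from PZ became 1.78 after the shift to equal hybridization controls and no longer passed. No member passed between FZ and PZ (0.609% of all) or between PZ and MZ (1.11% of all), where Ihh, at 3.21-fold lower in PZ, came nearest and passed at -2.14 after that shift. With counts this small and pairs that share arrays, these shares describe the members and were not tested.

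**Figure D2:**
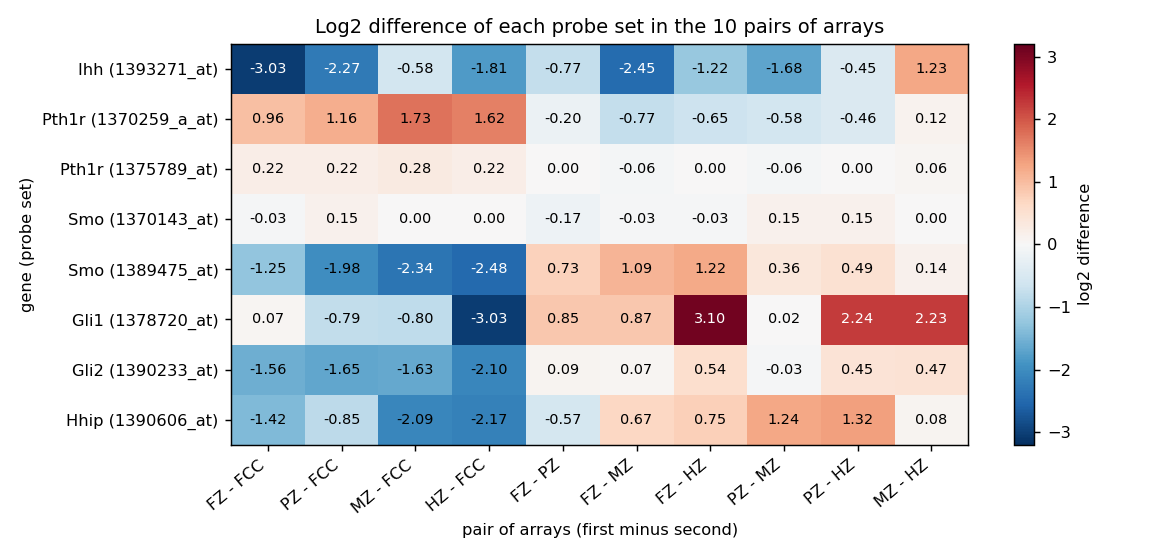
Log2 difference of each of the 8 member probe sets (rows) in the 10 pairs of arrays (columns, first minus second), with colour for size and sign and the value printed in each cell. Ihh, Smo by 1389475_at, Gli2 and Hhip were lower in all 4 MCC zones than in FCC, Pth1r was higher, and Gli1 was 2.23 to 3.10 lower in HZ than in the other MCC zones.

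With 1 value per gene, the mean of its probe sets, 2 of the 6 genes differed by at least 1 between superficial and deep zones. Gli1 was higher in the superficial zones, where 2.24% of all genes passed, and Ihh was lower, where 3.78% passed. Within the MCC the ligand was highest in MZ and lowest in FZ, and its target gene was highest in FZ and lowest in HZ. Both were lower in HZ than in MZ. In the deposited values Gli1 was level between PZ and MZ, where Ihh differed by -1.68. After a shift of the arrays to equal hybridization controls, PZ minus MZ was -0.44 for Gli1 and -2.14 for Ihh. In FCC, 4 of the 6 genes were at least 1 above the MCC mean, against 4.70% of all genes: Ihh by 1.92, Gli2 by 1.74, Hhip by 1.63 and Gli1 by 1.14. Smo lay 0.99 above, with 2.01 by its more variable probe set. None was at least 1 lower in FCC, where 5.13% of all genes passed, and Pth1r came nearest at -0.80. The median of the 6 genes was 1.38 for FCC minus MCC and 0.34 for superficial minus deep, beside -0.02 and -0.00 over all genes. Gli1 exceeded the MCC mean by 0.51 once HZ was left out. With arrays shifted to equal hybridization controls, Gli1 was at 0.70 and no longer passed, and Pth1r passed at -1.24. Of the 8 chondrocyte markers, 5 were also at least 1 higher in FCC and none lower, with a median of 1.45, and their part in the members' values was not tested.

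Of the other genes of the hedgehog, PTHrP and cilium pathways, 78 of 93 were measured. Between superficial and deep zones 4 were at least 1 higher and 0 lower, beside 2.24% and 3.78% of all genes, and their median was 0.09. Between FCC and the MCC mean 4 were higher and 3 lower in the deposited values, beside 4.70% and 5.13% of all genes, again with a median of 0.09. A shift of the arrays to equal hybridization controls lowers every FCC minus MCC contrast by more than 0.09. The sign of this median and the counts for FCC therefore depend on the scaling. At numbers this small, these shares do not set the pathway genes apart from all genes.

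Among the other hedgehog ligands, Shh stayed between -0.08 and 0.27 and Dhh between -0.27 and 0.41 over the 5 arrays, so neither shared the range of Ihh. Of the coreceptors that present the ligand to Patched, Boc was at -0.65 in HZ, -0.84 in MZ, 0 in PZ, 0.11 in FZ and 1.67 in FCC. Boc was thus 2.01 above the MCC mean in FCC and, like Hhip, low in both deep zones. Cdon had the same highest and lowest arrays as Gli2 in the deposited values, with -0.46 in HZ, -0.13 in MZ, 0 in PZ, 0.02 in FZ and 0.60 in FCC. Gas1 was at 0.28 in FCC and between -0.07 and 0.03 in the MCC zones. Gpc3, a glypican that competes for the ligand, was 1.19 higher in the superficial zones, through 1 probe set at 2.45 and another at -0.06.

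Inside the cell, Sufu, which holds Gli factors in the cytoplasm, ranged from -0.34 in FCC to 0.37 in PZ, and Kif7, the kinesin of the cilium tip, from -0.08 in HZ to 0.58 in FCC. The kinase Gsk3b was 1.08 lower in FCC than in the MCC mean, but PZ was low as well. Its values were -1.27 in FCC and -0.94 in PZ, against 0 in FZ, 0.12 in MZ and 0.08 in HZ. Of the hedgehog targets other than members, the cyclin Ccnd1 was lower in FCC by 1.28, with its 3 probe sets at -0.35, -1.67 and -1.82. Ccnd1 therefore went the opposite way from Gli1 and Hhip in FCC.

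On the PTHrP side, Zfp521, a zinc finger factor that acts downstream of PTHrP in the growth plate, had the largest difference between superficial and deep zones of the 78 genes. It was at -1.83 in HZ, -1.36 in MZ, 0.12 in PZ, 0.79 in FZ and 0 in FCC, a difference of 2.05. Both deep zones lay under all other arrays, while Pth1r had its highest values there. Mef2c drives hypertrophy and is held in check by PTHrP signalling. The mean of its 2 probe sets was 0.37 in HZ, 0.66 in MZ, -0.23 in PZ, -0.31 in FZ and -1.06 in FCC. This mean had the same order of arrays as Pth1r by 1370259_a_at, but neither probe set of Mef2c had that order alone. In 1 of them PZ (0.15) lay above HZ (0), and in the other FZ (0) lay above PZ (-0.62). Both were highest in MZ and lowest in FCC. By the mean, Mef2c was lower in FCC than in the MCC by 1.18. Cdkn1c, a cell cycle inhibitor, was 1.56 higher in FCC than in the MCC and was lowest in HZ at -1.87. Pth2r, the other receptor of the family, stayed between -0.13 and 0.35.

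Of 30 cilium genes, Ttc8, a part of the BBSome that moves cargo into cilia, was 1.51 higher in the superficial zones and 1.27 higher in FCC, and Ift27, of the intraflagellar transport complex, was 1.05 higher in the superficial zones. Bbs5 was 1.01 higher in FCC. In the deposited values the median of the list was 0.29 for superficial minus deep and 0.23 for FCC minus MCC. No cilium gene was then at least 1 lower in either. A shift of the arrays to equal hybridization controls lowered every FCC minus MCC contrast by the same amount, for Ihh from 1.92 to 1.48. That drop exceeds the list median of 0.23 and takes Ttc8 and Bbs5 under 1. It also takes Kifap3, at -0.64 as deposited, past -1.

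**Figure D3:**
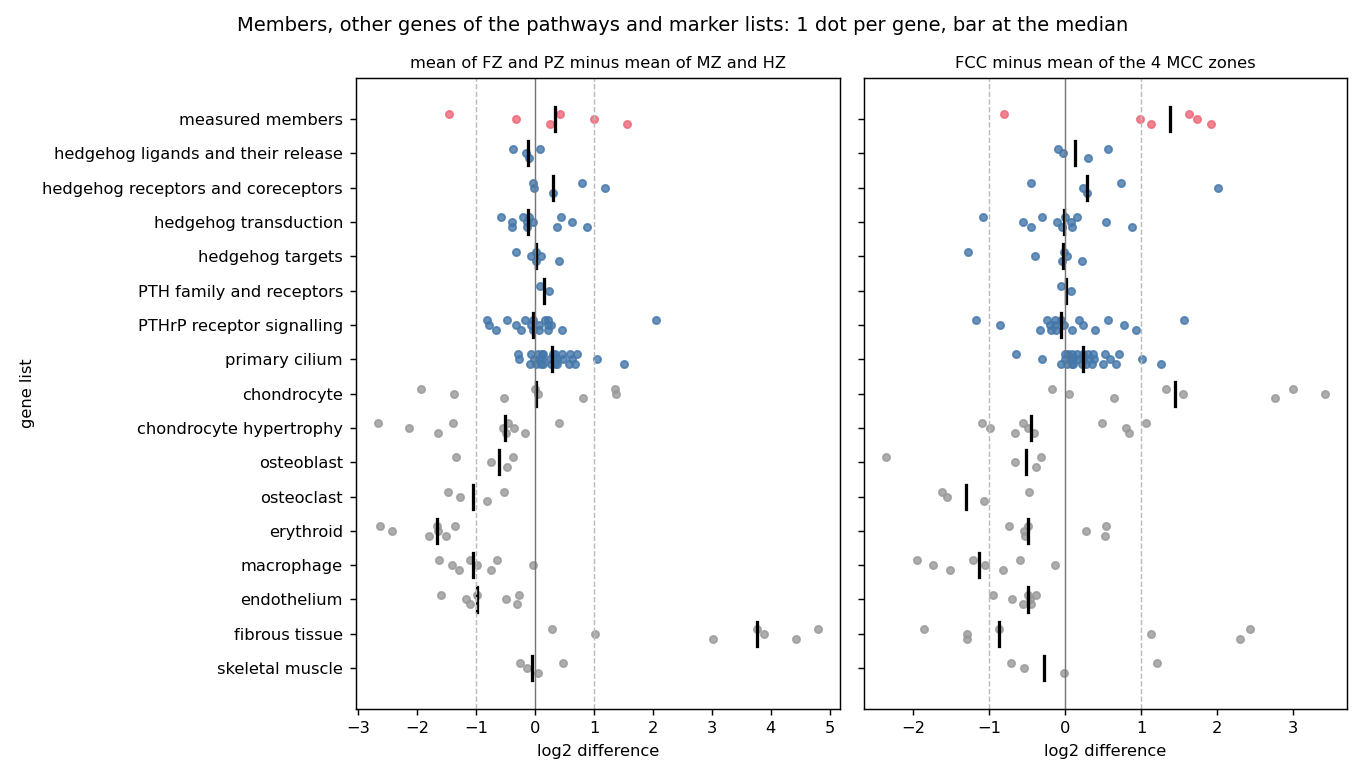
Log2 difference per gene, 1 dot each with a bar at the list median, for the 6 measured members, 7 lists of other pathway genes and 9 marker lists; the left panel shows superficial minus deep MCC zones and the right panel FCC minus the mean of the 4 MCC zones, with dashed lines at -1 and 1. The members had a median of 1.38 in the right panel beside 1.45 for chondrocyte markers, and the pathway lists clustered around 0.

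The genes whose patterns over the 5 arrays were most like those of the members were found by the root mean square (RMS) log2 difference, after each pattern was centred on its own mean. For Ihh these were Car8 (RMS 0.24), PCOLCE2 (0.31), Slc7a11 (0.43), Clu (0.44) and Als2cl (0.45). Like Ihh, Car8 was high in FCC at 1.90 and in MZ at 0.98 and low in FZ at -1.28. For Gli1 the nearest gene was Acan (0.24), the core protein of aggrecan, the main cartilage proteoglycan, followed by H19 (0.31), Mir23b (0.35), Fstl3 (0.39) and Slc16a3 (0.39). Acan by probe set 1387355_at was at -2.06 in HZ, -0.45 in MZ, 0 in PZ, 0.45 in FZ and 0.65 in FCC, so its low HZ value was near that of Gli1, but MZ lay further down.

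For Gli2 the nearest was Smoc2 (RMS 0.05), a matrix calcium-binding protein, followed by LOC102554214, Car11, Ccdc136 and Ltv1 (0.08 to 0.09). For Smo by 1389475_at it was Plxdc2 (0.06), followed by Flywch2, Creb5, Man1a1 and Pknox2 (0.11 to 0.12). For Hhip it was Grhpr (0.11), followed by Spaca6, Dhtkd1, Tcea3 and Ptpdc1 (0.14 to 0.17). These distances were smaller than those of the genes nearest to Ihh and Gli1. A likeness over 5 arrays rests on 5 points and was not tested.

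**Figure D4:**
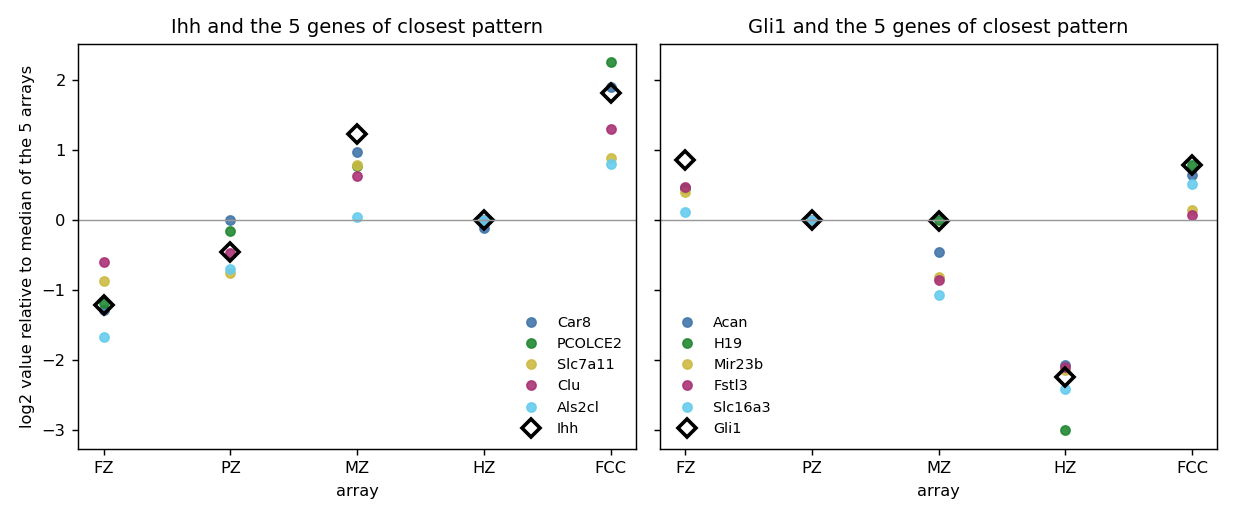
Deposited log2 values relative to the median of the 5 arrays for Ihh (left) and Gli1 (right), drawn as open diamonds, and for the 5 genes of closest pattern, drawn as filled circles, with 1 array per group. Car8, like Ihh, was highest in FCC and MZ, and Acan, like Gli1, was lowest in HZ.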

How the data were processed

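Laser-captured RNA went through 2 rounds of linear amplification before hybridization to an Affymetrix rat array, 1 per group. The authors deposited log2 values: the methods and the submitters' processing notes name MAS5, with background correction, and RMA with quantile normalization, and every probe set then had its own 5-array median taken off. All 31099 probe sets had a median of 0. Quantile normalization removes any overall difference between arrays, and signal over background is not held in the values; the number of arrays limits their precision. A genome build was not given in the sources used here.

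From these values, log2 differences were computed with pandas 2.3.3 and numpy 2.4.6 under Python 3.11.15 (plots by matplotlib 3.10.9) over 31042 probe sets, leaving out 57 controls. The computation was tested on simulated data. Platform symbols (20826 probe sets with 1 symbol, 436 with several, 9780 not listed) were updated through the RefSeq gene table, where 20764 matched. A gene had the mean of its probe sets. Counts used log2 differences of 2 between arrays, the study's own threshold, and 1 between means of groups. Named genes were all members, pathway genes at least 1 apart in either contrast, direct partners, and for member probe sets with a range of at least 2 the 5 genes of most like pattern. Genes of marker lists served as label checks. Members and lists were chosen with earlier results of these data known. Alternatives were the scaling, the thresholds, the choice of probe set and, chosen after seeing the data, leaving out each array. The authors' filter on low intensities needs levels and was not applied.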

Additional observations from a re-analysis of the deposited data

How the results depend on the processing

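The sign of both contrasts of each of the 6 member genes held under every setting tried. For Gli2, superficial minus deep came near 0, at 0.09 after the shift to equal hybridization controls and 0.02 without HZ. Smo by its flat probe set 1370143_at alone was not among the settings, and there FCC minus MCC was -0.03. After a shift of the arrays to equal hybridization controls, 3 in place of 5 member probe sets were at least 2 apart in some pair (Pth1r in, Smo, Gli2 and Hhip out), and 1 in place of 0 member genes was at least 1 lower in FCC (Pth1r, -1.24), as also with the probe set of largest range (1; Pth1r, -1.37). After that shift the median over all probe sets was -0.45 for FCC minus MCC and -0.15 for superficial minus deep. The shift takes 1 constant off each array, so a contrast moved by the same amount for every gene. For Ihh, FCC minus MCC went from 1.92 to 1.48 and superficial minus deep from -1.45 to -1.62. In FCC, Gli2 then stood 1.30, Hhip 1.19, Gli1 0.70 and Smo 0.55 above the MCC. Centring each array on its median changed nothing, since these medians are 0. At a log2 difference of 2, there were 0 member genes lower in FZ and PZ, 0 higher in FZ and PZ and 0 higher in FCC. Other pathway genes higher in FZ and PZ were 2 at a threshold of 1.4 and 1 at 2 in place of 4, and with the probe set of largest range 3 in place of 0 were lower (Btrc, Mef2c and Rgs2). Leaving out each array in turn, chosen after seeing the data, gave 2 (without FCC) to 5 member probe sets at least 2 apart. It gave 0 (without MZ) to 1 member genes lower and 0 (without HZ) to 2 (without FZ or MZ) higher in FZ and PZ, Hhip being the added gene at 1.28 without FZ, and 0 to 2 (without FZ) other pathway genes lower. No paired analysis was possible because each group has 1 array. With 1 array per group, no depth or replicate error stands behind any of these counts.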
